A study of Mus musculus with 16 samples.

Results

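The 10 genes described here encode receptor chains of the interleukin 6 (IL-6) family, a related cytokine receptor chain (Il13ra1), Janus kinases and STAT3, which act below such receptors, and SOCS inhibitors, and all 10 were found by symbol among the 23222 genes of the deposited tables. They are 5 receptor chains (Il6ra, Il6st, Lifr, Osmr and Il13ra1), 2 Janus kinases (Jak1 and Jak2), the transcription factor Stat3, and 2 inhibitors (Socs1 and Socs3). Their RNA was measured in isolated myofibers, the multinucleated contractile cells of muscle, from the extensor digitorum longus (a fast hindlimb muscle) of male C57BL/6 mice. There were 4 groups of 4 libraries: 4-month-old controls (young controls), 4-month-old mice given 5 weeks of voluntary wheel running (young runners), and 22-month-old controls and runners (old controls and old runners). Every group had the same strain, sex and muscle. Separate mice are not named in the labels for the replicate libraries, so p-values measure the spread between libraries, which may be technical.

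IL-6 binds its own receptor chain, encoded by Il6ra, and the pair recruits gp130, encoded by Il6st, which the whole family shares. Leukaemia inhibitory factor signals through LIFR with gp130, and oncostatin M through OSMR or LIFR with gp130. IL13RA1 is not a chain of this family: it pairs with the IL-4 receptor and binds IL-13. Janus kinases bound to these chains phosphorylate STAT3, which enters the nucleus, and SOCS3, itself a STAT3 target gene, binds gp130 and the kinases and shuts the signal off. In muscle the pathway is known for its part in the response to exercise, in satellite cell activity and in wasting. RNA levels do not report the phosphorylation of STAT3.

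Libraries held 30.7 to 67.4 M assigned reads (M, 1000000 reads). Levels are normalised reads, that is, recovered reads divided by a size factor computed over all 16 libraries, given as mean ± SD (n = 4) or library by library. Differences are on the deposited log2 scale, first group minus second, and a gene is called when its adjusted p is under 0.05 (limma, Benjamini-Hochberg over all genes tested in that comparison). Genes of fibres dominated: 7 myofiber markers summed to 4784796 to 9435563 normalised reads in every library. The RNA was bulk, so fewer cells of a type and less RNA per cell cannot be told apart. Markers of other cells were present at low levels. Some of their sums differed with running, while those of satellite cell, Schwann and tenocyte markers overlapped at both ages. The 8 markers of fibro-adipogenic progenitors (FAPs, the connective tissue cells of muscle) summed to 14.4 to 616 reads in young controls and 3978 to 12141 in young runners, and to 210.4 to 1879 in old controls and 1902 to 4017 in old runners. All 8 had reads in the young groups and 7 in the old groups, where the defining marker Pdgfra was at 0. The 8 endothelial markers, all with reads in each group, summed to 239.7 to 1124 in young controls and 1587 to 5908 in young runners, and to 552 to 5171 and 1037 to 4043 in old controls and runners. Of the 6 mural cell markers the sums were 65.7 to 492 and 703 to 2906 in young controls and runners, and 254 to 1464 and 621 to 2988 in old controls and runners, with Myh11 at 0 in old controls. Summed macrophage and leukocyte markers overlapped between runners and controls at both ages (548 to 2552 and 919 to 2750.3 in young controls and runners, 307 to 1166 and 501 to 1492 in old controls and runners, 6 of 8 markers with reads in the young and 5 of 8 in the old groups). Of single macrophage markers, Lyz2 gave 0.0 to 59.5 reads in young controls and 55.5 to 229 in young runners, with overlap. Mrc1 gave 207 to 356 and 0.0 to 119, without overlap. In old controls and runners both overlapped (Lyz2 0.0 to 296 and 72.1 to 396, Mrc1 0.0 to 48.2 and 0.0 to 91.8). Cd68 overlapped at both ages (230.4 to 2137 and 849.7 to 2293 in young, 306 to 1059.6 and 320.1 to 1084 in old controls and runners). Of 2 macrophage and leukocyte markers tested by limma, 1 was called higher and 0 lower in runners with both ages averaged. Between old and young controls 0 were called higher and 1 lower in old mice. Their part in the results for the members was not tested. The defining macrophage marker Adgre1 was not in the tables and was not analysed here.

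Of the 10 genes, the inhibitor Socs3 had by far the highest level per exon length, and the IL-6 receptor chain Il6ra the lowest. Per kilobase (kb) of exon and averaged over 16 libraries, Socs3 reached 11550.3 normalised reads, which placed it at the 99.2 percentile of 22254 genes with an exon length. Jak1 (2089.7 per kb, percentile 96.0), Stat3 (1601, percentile 94.9) and the shared chain Il6st (1126, percentile 93.0) came next. Jak2 followed at 552 per kb, then Socs1 at 219.7 and Lifr at 188. Il13ra1 (69.8), Osmr (45.3) and Il6ra (9.71 per kb, percentile 47.2) closed the order. The first 5 places were the same in each of the 4 groups. The range of Socs3 did not overlap that of Jak1 in any group: its lowest library among the young runners, where the gap was smallest, gave 4049 per kb and the highest Jak1 library 3220.2. The ranges of Jak1 and Stat3, and those of Stat3 and Il6st, overlapped in every group, so the order within these pairs is within the spread of libraries. Lifr and Socs1 also overlapped each other in every group, as did Il13ra1 and Osmr.

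**Figure D1:**
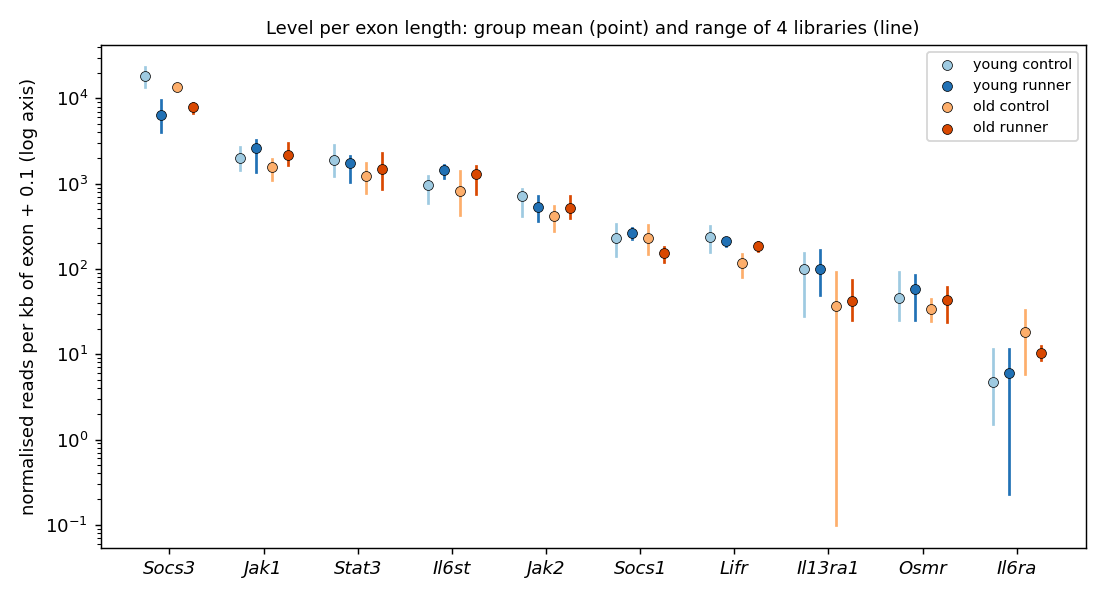
Level of the 10 genes per kilobase of exon (log axis, normalised reads plus 0.1), with the group mean as a point and the range of 4 libraries as a line, by group. Socs3 lies above Jak1 without overlap in every group, and Il6ra lies lowest with group means of 4.56 to 18.1 per kb.

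The most marked difference with running was in Socs3, the feedback inhibitor of gp130 signalling. The gene lies on chromosome 11 (117966079 to 117970047, minus strand, mm10, GENCODE M21). The 4 young controls gave 39457, 49593, 66461 and 56878 normalised reads, and the 4 young runners 11707, 12612, 28000.1 and 21388. Every young runner was below every young control. Socs3 fell by 1.59 on the log2 scale in young runners (SE 0.28, 95% interval -2.22 to -0.96, adjusted p = 0.0412 by limma), from 53097 ± 11419.5 to 18427 ± 7733 reads, a ratio of means of 2.88. It was the only one of 9 tested members that was called, against 81 of 10624 genes (0.762%), 51 of them lower in runners (0.48%), and it ranked 50 by p. Of the 9, 2 had an unadjusted p under 0.05, as did 1844 of all genes. The groups of 11.4% of genes tested did not overlap in this comparison, 5.74% with runners lower. This call depended on single libraries and on the scale: it held without the third young runner listed or without the first young control listed, but ended without any of the other 6 (adjusted p up to 0.145), and voom on the recovered reads gave 0.064.

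In old mice the controls gave 37073, 35803, 41474 and 43084 reads of Socs3 and the runners 19618, 21557, 24343 and 25223. The groups again did not overlap, and both were narrower than the young groups. The difference was -0.78 (SE 0.13, 95% interval -1.06 to -0.49), from 39358 ± 3475 to 22685 ± 2573 reads, a ratio of means of 1.73. It did not pass (adjusted p = 0.0556 by limma, unadjusted p = 9.48e-05, rank 16 of 9379 genes). No member was called in old mice by limma, and 2 of 9 tested had an unadjusted p under 0.05, against 12 of 9379 genes (0.128%) called and 1628 at that p. The groups of 10.2% of genes did not overlap, 5.51% with runners lower and 4.7% with runners higher. The value passed when the first old control listed was left out (-0.81, adjusted p = 0.0264) and after median centring (0.0424), so it sits at the threshold.

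A fit of all 16 libraries, added after the data were seen, gave the effect of running averaged over the ages. In it Socs3 fell by 1.18 (SE 0.19, 95% interval -1.57 to -0.79, adjusted p = 0.00196 by limma), and all 8 runners were below all 8 controls. That fit called 891 of 9356 genes (9.52%), 4.66% with runners lower, and 1.28% of genes, 0.909% with runners lower, separated the groups in this way; Socs3 ranked 24 by p. It was called in each of the 22 alternatives run, with differences of -1.26 to -1.07. The fall was 0.81 smaller in old than in young mice (SE 0.33, 95% interval 0.12 to 1.5, unadjusted p = 0.0245), but this difference between the ages did not pass (adjusted p = 0.785), and the same model called 0 of 9356 genes (0.0%), with 585 at an unadjusted p under 0.05. The summed FAP markers were higher without overlap in the runners of both ages, where Socs3 was lower, and the endothelial and mural sums in young runners. Their part in the Socs3 results was not tested.

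Since Socs3 is known as a STAT3 target, the stretch of its RefSeq promoter that holds the STAT-type palindrome TTCNNNGAA is shown (GRCm38.p6, chr11:117969452-117969616, minus strand, 5′ to 3′, the match in capitals). The 165 bases lie upstream of the RefSeq start and outside all GENCODE M21 exons, in the intron of 1 of 3 annotated transcripts.
Socs3: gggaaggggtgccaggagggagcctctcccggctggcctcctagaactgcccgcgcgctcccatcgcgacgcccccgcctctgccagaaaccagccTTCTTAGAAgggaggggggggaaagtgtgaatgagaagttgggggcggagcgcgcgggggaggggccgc
The match begins 154 bases upstream of the RefSeq start, and the RefSeq start lies 681 bases inside the GENCODE gene. The motif reads the same on both strands and was searched in 300-base windows, 250 before to 50 after each start. Of the 10 genes, all of which had a window, 1 held a match, and of all 32851 windows 2726 (8.3%) did. A match is a run of letters and was not measured as a binding site here.

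Socs1, a related inhibitor of Janus kinases best known for its action on interferon signalling, had no called difference with running. Its mean was lower in runners in old mice, as was that of Socs3, and not in young mice. The Socs1 gene lies on chromosome 16 (10782240 to 10785536). Its levels were 679 ± 240.0 reads in young controls, 770.2 ± 98.3 in young runners, 665 ± 255 in old controls and 442 ± 94.6 in old runners. Running differences were 0.18 in young (95% interval -0.31 to 0.67) and -0.33 in old mice (-0.77 to 0.10), neither called (adjusted p = 0.708 and 0.414 by limma). The 4 old runners (377, 345, 528 and 518 reads) all lay below the 4 young runners (730.1, 811, 883 and 657). That difference of -0.51 (SE 0.14, 95% interval -0.82 to -0.20) did not pass either (adjusted p = 0.606 by limma). Of 9387 genes tested between the runners of both ages, 2 (0.0213%) were called and 3.32% did not overlap, 1.59% with old runners lower. By limma 0 members were called, with 2 of 9 members and 461 genes at an unadjusted p under 0.05, and the medians were -0.22 over the 9 members tested and 0.0 over all genes.

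**Figure D2:**
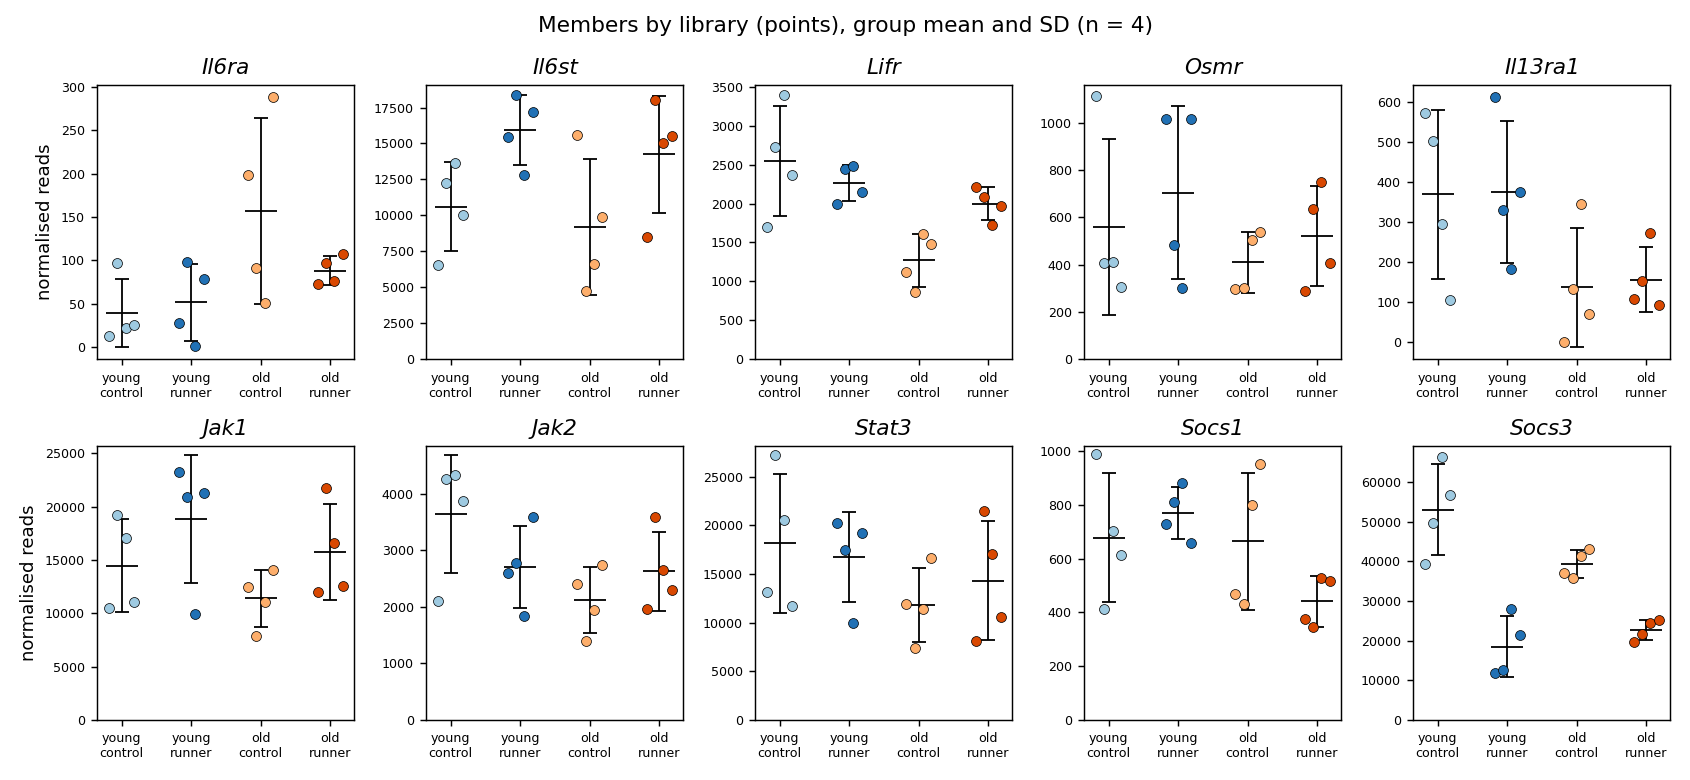
Normalised reads of each of the 10 genes (linear axes from 0, 1 panel a gene) in the 16 libraries (points), with group mean and SD (bars, n = 4). For Socs3 all runners lie below all controls at each age, and for Lifr the old controls lie below the other 3 groups.

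The shared receptor chain Il6st (gp130) was higher on average in runners at both ages, without passing the test. It lies on chromosome 13 (112464070 to 112510086). The young controls gave 6561, 12235, 13637 and 10013 reads and the young runners 15449, 18371, 12784 and 17193. Only the third young runner came below a young control, so these groups overlapped by 1 library. Old controls gave 15589, 4741, 6601 and 9858 reads and old runners 8473, 18035, 15000.2 and 15493. The first old control and the first old runner each sat at the level of the other group. The differences were 0.61 in young (95% interval 0.12 to 1.11, adjusted p = 0.206 by limma) and 0.70 in old mice (-0.03 to 1.43, adjusted p = 0.31). Averaged over the ages the difference was 0.65 (SE 0.21, 95% interval 0.21 to 1.10), with a ratio of means of 1.52 and an adjusted p of 0.0559. It passed after median centring (0.0441) and with the stricter filter of 2 (0.0456). FAP sums were also higher without overlap in runners of both ages, and endothelial and mural sums in young runners, and their part in these differences was not tested.

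Lifr, the chain for leukaemia inhibitory factor, was lowest in old controls. It lies on chromosome 15 (7090614 to 7197489), some way from Osmr on the same chromosome (6813577 to 6874969). Old controls gave 1115, 869, 1609 and 1481 reads, young controls 1693, 2734, 3401 and 2364, and old runners 2220.4, 2085, 1725 and 1974. The old controls did not overlap with either. Among all genes tested, 6.86% did not overlap between old and young controls, 3.16% with old controls lower. Between old runners and old controls it was 10.2%, 4.7% with runners higher. Against young controls the difference was -0.83 (SE 0.22, 95% interval -1.33 to -0.33, ratio of means 2.01) and did not pass (adjusted p = 0.228 by limma). Old runners differed from old controls by 0.56 (SE 0.17, 95% interval 0.19 to 0.92), which did not pass either (adjusted p = 0.151). Both comparisons use the same old controls, so they are not independent. Young runners (2266 ± 237 reads) and young controls (2548 ± 713) overlapped, with a difference of -0.13 (-0.58 to 0.32). The running effect was 0.68 larger in old than in young mice (95% interval 0.12 to 1.24, unadjusted p = 0.0195), with an adjusted p of 0.718.

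Osmr, Il13ra1 and Il6ra had low and scattered levels. Osmr, the oncostatin M chain, ranged from 289.9 to 1115 reads over the 16 libraries, and each group overlapped all others. Its running differences were 0.27 in young (95% interval -0.56 to 1.10) and 0.19 in old mice (-0.28 to 0.65). Il13ra1, on the X chromosome (36112110 to 36171259), gave 369 ± 212 reads in young controls, 375 ± 178 in young runners, 137 ± 148 in old controls and 156 ± 81.4 in old runners. The groups of old mice had the lower means at either activity, with differences of -0.86 in controls (95% interval -1.75 to 0.04) and -0.58 in runners (-1.04 to -0.11), and neither difference passed (adjusted p = 0.462 and 0.976 by limma). The first old control listed had 0 reads of Il13ra1, which allows up to 3 reads or 2.91 normalised reads for counting error alone.

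Il6ra, on chromosome 3 (89864059 to 89913196), was the chain closest to the limit of detection. Young controls gave 12.3, 97.3, 22.4 and 25.7 reads and young runners 27.9, 98.4, 1.12 and 78.4. Old controls gave 198, 90.7, 50.4 and 288 and old runners 72.1, 96.7, 76.5 and 107. The groups all overlapped. Il6ra passed the filter (1 log2 unit or more over the floor in 4 or more of 8 libraries) between the controls alone, with exactly 4 libraries, and had 3, 3 and 1 such libraries in the running comparisons of young and old mice and in the runners. Between controls it was 0.64 higher in old mice (95% interval 0.05 to 1.24, adjusted p = 0.402 by limma), on a scale that compresses values this low. An exon of Il6ra overlaps the predicted gene Gm42809 on the opposite strand. The libraries kept no strand, so reads of the overlap cannot be assigned.

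The kinases and Stat3 were abundant, and their groups overlapped in every comparison. Stat3, on chromosome 11 (100885098 to 100939540), gave 13124, 27215, 20556 and 11699 reads in young controls and 20288, 17466, 9971 and 19242 in young runners. It gave 11870.2, 7400.2, 11397 and 16614 in old controls and 8148, 21517, 17069 and 10534 in old runners. The 4 ranges overlapped. The running differences of -0.09 in young (95% interval -0.74 to 0.57) and 0.23 in old mice (-0.44 to 0.90) were within the spread of libraries (adjusted p = 0.904 and 0.738 by limma), and these intervals leave room for a change of either sign. Old controls had 11820.4 ± 3773 reads against 18149 ± 7184 in young controls, a difference of -0.55 (95% interval -1.20 to 0.09, adjusted p = 0.51). An exon of Stat3 overlaps Stat5a on the opposite strand, and Stat5a itself gave group means of 967 to 1338 reads.

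Jak1, the kinase that binds gp130, lies on chromosome 4 (101152367 to 101265282). It gave 10486, 19232, 17057 and 11035 reads in young controls, 23272, 20876, 9943 and 21303 in young runners, 12497, 7907, 11047 and 14095 in old controls, and 12027, 21738, 16598 and 12525 in old runners. Of the young runners 3 lay above every young control and the third listed lay below all of them. Running differences were 0.35 in young (95% interval -0.29 to 0.99) and 0.45 in old mice (-0.03 to 0.93), and the averaged difference was 0.40 (SE 0.19, unadjusted p = 0.048, adjusted p = 0.172 by limma). An exon of Jak1 overlaps Raver2 on the opposite strand.

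Jak2, another kinase that binds gp130, lies on chromosome 19 (29251828 to 29313080). Young controls gave 2106, 4262, 4329 and 3882 reads, and old controls 2413, 1391, 1951 and 2740.4. Apart from the first young control the young libraries lay above the old. The difference of -0.66 (SE 0.25, 95% interval -1.21 to -0.12, ratio of means 1.72) did not pass (adjusted p = 0.341 by limma). With running Jak2 gave -0.39 in young (95% interval -0.96 to 0.17) and 0.28 in old mice (-0.18 to 0.73), opposite in sign, and the difference between these effects was 0.67 (-0.06 to 1.40, unadjusted p = 0.0707, adjusted p = 0.807).

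**Figure D3:**
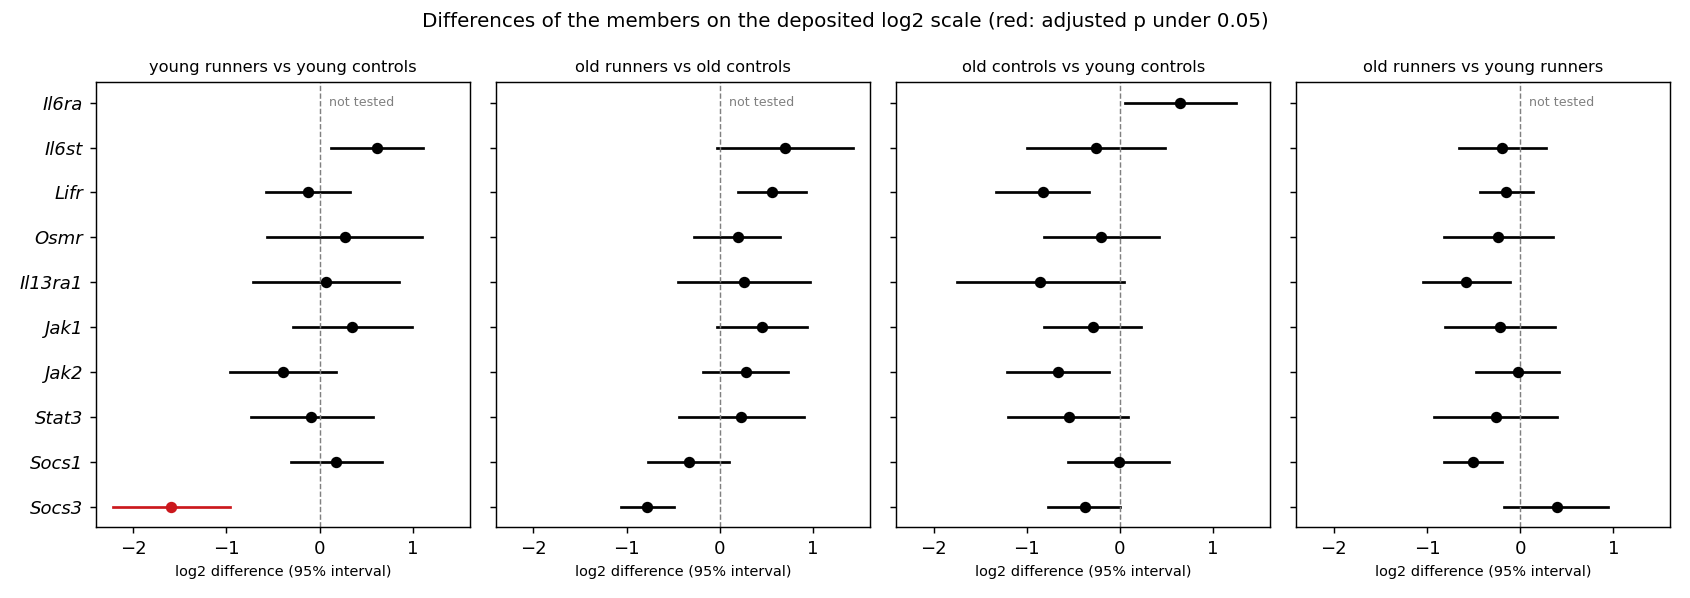
Difference of each gene on the deposited log2 scale (point) with its 95% interval (line) in the 4 comparisons, first-named group minus second, with called genes in red. Socs3 in young runners is the only red point, and 9 of 10 genes lie below 0 in old against young controls.

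Counted together, the 10 genes showed no shared direction with running. In young mice 5 of 9 tested were above 0 and 4 below (median 0.07, all genes 0.01), and in old mice 7 above and 2 below (median 0.26, all genes 0.03). The averaged fit gave 6 above and 3 below (median 0.16, all genes 0.04). Between old and young controls 9 of 10 were below 0, the exception being Il6ra (median -0.34, all genes -0.01). No member was called there, by limma, against 11 of 9831 genes (0.112%). Of the 10, 3 had an unadjusted p under 0.05 by limma, as did 1099 of all genes (11.2%). Il6ra, which entered the test mainly through the old controls, is among these 3. Of all genes tested 6.86% did not overlap, 3.16% with old controls lower. The comparisons share groups of libraries pairwise, so their counts are not independent.

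The levels of Il6st, Jak1, Jak2 and Stat3 correlated with a measure of the libraries. For each gene the log2 level of a library was taken relative to the mean of the 16 libraries. The median of these values over genes with short exons (2362 bases or less in sum, the lowest quartile of 9948 genes) was then subtracted from that over genes with long exons (6543 or more). This measure ran from -0.67 to 0.44 in young controls, -0.31 to 0.45 in young runners, -0.53 to 0.06 in old controls and -0.15 to 0.34 in old runners. Over the 16 libraries it correlated with Il6st (Pearson r = 0.86, adjusted permutation p = 0.00015; Spearman rho = 0.79, adjusted permutation p = 0.00255) and with Jak1 (r = 0.86, p = 0.00015; rho = 0.84, p = 0.0008, both adjusted permutation p). It also correlated with Jak2 (r = 0.72, rho = 0.74) and Stat3 (r = 0.73, rho = 0.74), with adjusted permutation p of 0.00465 for r and 0.00452 for rho in both. Without the young and the old control farthest from the median the r values were 0.77, 0.85, 0.64 and 0.77 for Il6st, Jak1, Jak2 and Stat3. Within groups, after each group's mean was removed, they were 0.83, 0.84, 0.89 and 0.79. By exon length Il6st, Jak1, Stat3, Lifr, Osmr and Il6ra are themselves in the long quartile. The measure is taken from genes of that quartile, so a positive r is partly built in for them. The share of all genes with such an r was not computed, so these r values do not show a trait particular to the members. Socs3, with 2.89 kb of exon, did not pass (r = -0.32, adjusted permutation p = 0.329; rho = -0.27, adjusted permutation p = 0.382; within groups r = 0.03). The 10 members were tested in this way, and the other 5 did not pass, with r of -0.29 to 0.48 and adjusted permutation p of 0.111 or more; their within-group r ran from -0.34 to 0.42 apart from Il6ra, at 0.77.

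**Figure D4:**
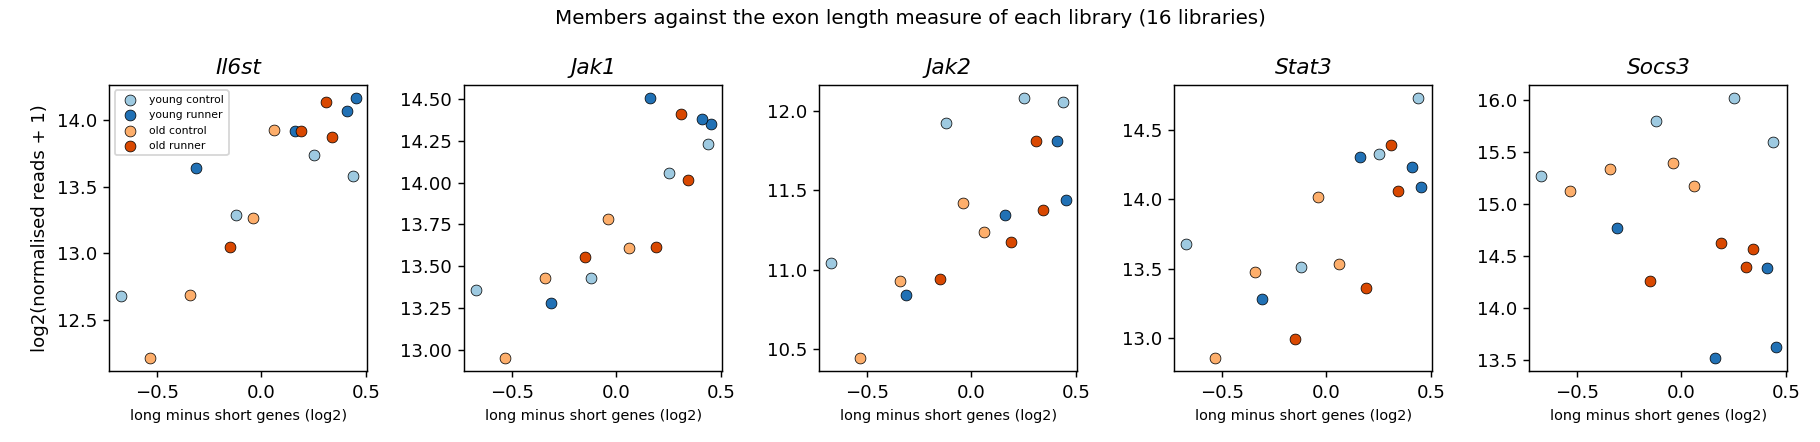
Log2 level (normalised reads plus 1) of Il6st, Jak1, Jak2, Stat3 and Socs3 against the difference in median relative log2 level between genes with long and short exons, 1 point a library and coloured by group. Il6st and Jak1 climb with the measure (r = 0.86 for both), while the runner libraries of Socs3 lie below the control libraries across its range.

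With a smooth trend on exon length removed from every library, the Socs3 differences were -1.59 in young (adjusted p = 0.0301 by limma) and -0.74 in old mice (adjusted p = 0.0986). Those of Il6st were 0.58 (adjusted p = 0.064) and 0.53 (adjusted p = 0.346). The difference of Stat3 in old mice went from 0.23 to 0.08. Across libraries Stat3 also varied with Jak1 (r = 0.88 of log2 levels, 16 libraries) and Jak2 (0.81), and hardly with Socs3 (-0.06). These correlations between members share the libraries, their depth and the length measure, and are given as a description.

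By the same measure of likeness, the Pearson r of log2 levels over 16 libraries against 9069 genes with a mean of at least 100 reads, the genes most like Socs3 were BC029214 (0.94) and Alpl, alkaline phosphatase (0.91). Those most like Stat3 were Flnc, which encodes the actin crosslinker filamin C (0.94), and Cltc, the clathrin heavy chain (0.91). Cltc was also among those most like Jak1 (0.92), with Mgea5 (0.92). Il6st was most like Fam53c and Mypn, the sarcomere protein myopalladin (0.97 for both), Jak2 like Sgpp1 (0.90) and Atp11b (0.89), and Lifr like Rap1gap2 (0.88) and Tnfrsf21 (0.87). Osmr was most like Slc19a2 (0.92) and Btg1 (0.89), Il13ra1 like Utp14b and Parp9 (0.95 for both), and Socs1 like Rrp1b (0.86) and Slc10a3 (0.76). Il6ra, with a mean of 83.9 reads, was too low for this measure. The genes named are the highest of 9069 by r, and these r values also share the libraries, their depth and the length measure. The part of these was not tested, and the r values are given as a description.

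Around the members, 69 further genes of the pathway were listed by role. Among the inhibitors the growth hormone regulator Socs2 moved in the direction of Socs3. Young controls gave 2909, 2689, 3946 and 3172 reads and young runners 2232, 1556, 1306 and 1542, without overlap. Old controls gave 2939, 2394, 3375 and 2985 and old runners 1277, 2522, 2186 and 1110.4, with the second old runner above 1 control. Socs2 fell by 0.77 in the averaged fit (SE 0.15, adjusted p = 0.00599 by limma), from 3051 ± 466 to 1716 ± 524 reads (n = 8). At the single ages it did not pass: -0.88 in young (adjusted p = 0.0619) and -0.66 in old mice (adjusted p = 0.171). Ptpn11, which encodes the phosphatase SHP2 that docks on gp130, rose by 0.84 in the averaged fit (SE 0.19, adjusted p = 0.0139), from 1106 ± 514 to 2081 ± 390.4 reads (n = 8). These were the 2 of 12 other inhibitors tested that were called in the averaged fit, beside 9.52% of all genes. In young mice 0 of 13 and in old mice 0 of 12 were called, by limma, beside 0.762% and 0.128% of all genes. At an unadjusted p under 0.05 by limma were 4 at each age and 4 in the averaged fit. Of all genes 17.4% in young mice, 17.4% in old mice and 28.3% in the averaged fit had such a p. The STAT5 target Cish, a SOCS relative, gave overlapping levels of 963 to 3462 reads in all groups.

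**Figure D5:**
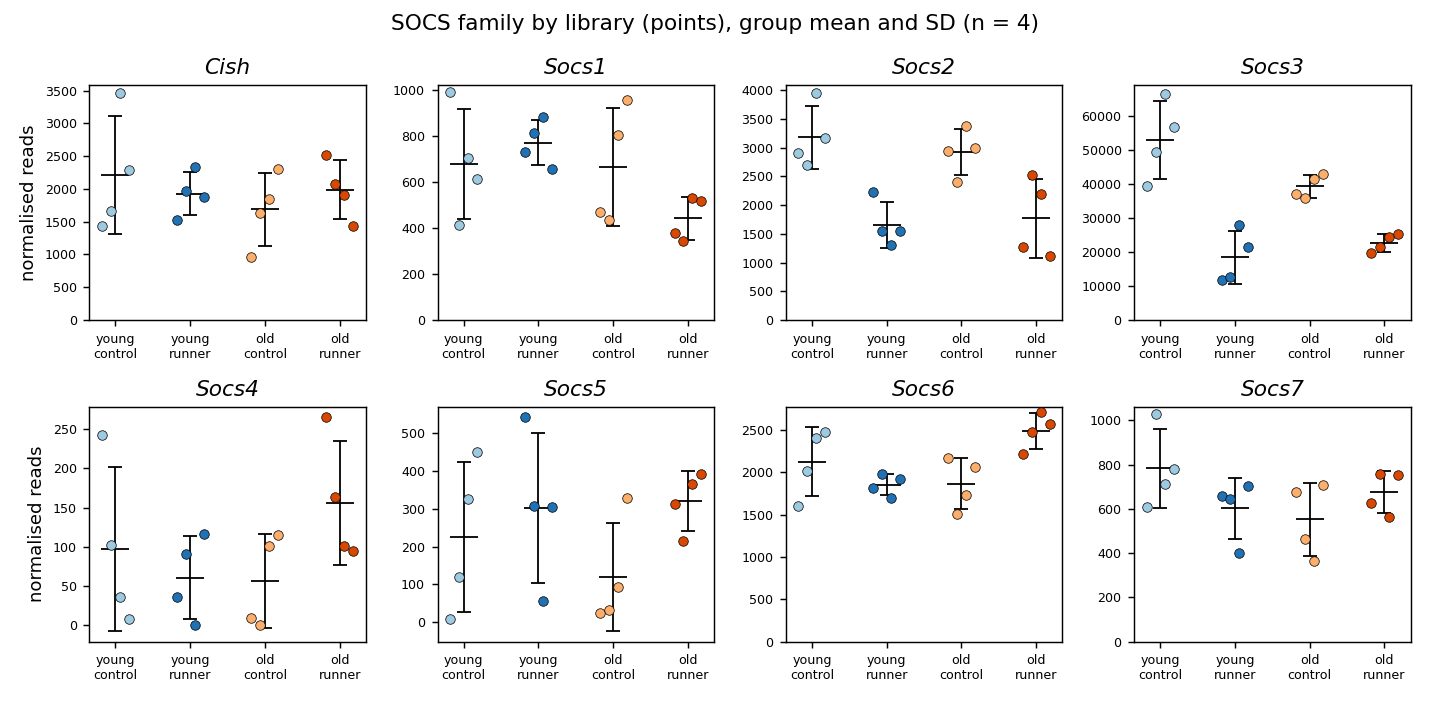
Normalised reads of the 8 genes of the SOCS family (linear axes, 1 panel a gene) in the 16 libraries (points), with group mean and SD (bars, n = 4). Socs3 and Socs2 have lower group means in runners at both ages, and only for Socs3 do all runners lie below all controls.

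Among 26 genes known as targets of STAT3 or IL-6, no common direction was seen. In young mice 11 of 24 tested were above 0 and 13 below (median -0.01, all genes 0.01). Of these 24, 10 had an unadjusted p under 0.05 by limma, beside 17.4% of all genes, and 1 was called, beside 0.762%. This was Icam1, an adhesion molecule, which rose by 1.79 (SE 0.34, adjusted p = 0.0474 by limma) from 199.6 ± 94.8 to 1167 ± 682 reads; the call ended without any of 7 of the 8 libraries (adjusted p up to 0.153). Icam1 is also expressed by endothelial cells, whose markers were higher in the same libraries, and their part in this result was not tested. In old mice 8 of 23 were above 0 and 15 below (median -0.09, all genes 0.03). Of these, 0 were called by limma and 4 had an unadjusted p under 0.05, beside 17.4% of all genes at that p. In the averaged fit 3 were called lower and 1 higher, of 23 tested, beside 9.52% of all genes called. Of the 23, 9 had an unadjusted p under 0.05 by limma, beside 28.3% of all genes. Vegfa, the angiogenic growth factor, fell by 0.77 (adjusted p = 0.0112), from 36398 ± 8261 to 21489 ± 5507 reads (n = 8). Junb, a partner of Fos proteins in AP-1, had 85027 ± 15482 reads in runners and 122292 ± 13514 in controls (n = 8) and fell by 0.53 (adjusted p = 0.0124 by limma). Cebpd, an acute-phase transcription factor, fell by 0.47 (adjusted p = 0.041), and its call was lost in 13 of 22 alternatives (adjusted p up to 0.0904). Icam1 rose by 1.28 (adjusted p = 0.0152). Bcl3, an atypical member of the IkappaB family, had the smallest p between controls, with 90.6 ± 68.6 reads in old and 241 ± 26.8 in young mice (adjusted p = 0.292).

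The ligands had low levels. Of 10 listed, 1 or 2 passed the filter in each comparison and 0 were called by limma. With an unadjusted p under 0.05 by limma there was 1 in young mice and 1 in the averaged fit, beside 17.4% and 28.3% of all genes. Ctf1, which encodes cardiotrophin 1 and signals through LIFR and gp130, was the ligand with the highest level, with group means of 622 to 913 reads and an averaged difference with running of 0.30 (adjusted p = 0.0806 by limma). Il6 itself was detected in 2 of 4 young controls (0.0 to 36.9 reads), 3 of 4 old controls (0.0 to 336) and all 8 runners (31.5 to 317 in young, 65.4 to 404 in old). The ranges overlapped at both ages. Lif was read in 3 of 4 young runners, 2 of 4 old runners, 1 old control and no young control, at up to 146 reads. The symbols Osm, Cntf and Il13 were not in the tables and were not analysed here. Of 11 other receptor chains 5 were tested in each comparison and 0 were called by limma. Young mice, old mice and the averaged fit each had 1 at an unadjusted p under 0.05, beside 17.4%, 17.4% and 28.3% of all genes. Cntfr, the ciliary neurotrophic factor chain that also uses gp130 and LIFR, gave 3083 ± 901 reads in old runners against 1633 ± 760.0 in old controls (0.86, adjusted p = 0.202). Il4ra, the partner of IL13RA1, gave 400.1 ± 202 in young runners against 144 ± 116 in young controls (1.07, adjusted p = 0.252). Il11ra1, the IL-11 chain, had group means of 1989 to 2498 reads.

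Of 8 other kinases and STAT factors 6 or 7 were tested in each comparison, and 0 were called by limma. At most 2 had an unadjusted p under 0.05, in the averaged fit, beside 28.3% of all genes there. Stat5b was the most abundant of them, with group means of 8498 to 13812 reads. Stat6, which acts below IL13RA1, had its lowest mean in old controls, as Lifr and Stat5b did. It gave 908 ± 343 reads in old controls, against 1472 ± 252 in young controls (-0.58, adjusted p = 0.389 by limma) and 1485 ± 116 in old runners (0.59, adjusted p = 0.18). Unlike for Lifr, old and young controls overlapped, with the third old control (1298 reads) above the second young control (1125). Tyk2 gave 448 ± 228 in young runners and 225 ± 259.9 in young controls (1.0, adjusted p = 0.354). Over all pathway lists the counts called were 1 of 50 in young, 0 of 49 in old and 6 of 48 in the averaged fit, beside 0.762%, 0.128% and 9.52% of all genes tested, and the medians were 0.04, 0.06 and 0.06 beside 0.01, 0.03 and 0.04 for all genes. At an unadjusted p under 0.05 by limma were 16, 10 and 17 of these genes, beside 17.4%, 17.4% and 28.3% of all genes. Between controls 0 of 49 were called by limma (7 at an unadjusted p under 0.05) and between runners 0 of 49 (5 at that p). Of all genes 11.2% between controls and 4.9% between runners had such a p. The smallest p of their lists between controls were those of Pias2, an inhibitor of STAT factors (4614 ± 1428 reads in old, 7083 ± 1898 in young, adjusted p = 0.401), and Ifngr1, an interferon gamma receptor chain (1002 ± 293 and 721 ± 114, adjusted p = 0.538). Between runners they were those of Socs6 (2489 ± 212 in old, 1852 ± 124 in young, adjusted p = 0.765), Fosl2 (1258 ± 156 and 921 ± 167, adjusted p = 0.982), Il11ra1 (adjusted p = 0.982), Jak3 (204 ± 72.3 and 146 ± 111, adjusted p = 1) and Il6 (adjusted p = 1).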

How the data were processed

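RNA of isolated myofibers was measured by bulk RNA-seq in 16 libraries, 4 a group. Per the labels' protocols, 10 ng of total RNA was amplified (SMART-Seq v4) and made into libraries by ligation (Ovation Ultralow), without strand. Per the submitters' processing notes the authors used Trim Galore, STAR, featureCounts (Subread), DESeq2 and mm10; their versions and the annotation are not given in the sources used here. What the authors deposited are log2 values with the form of the variance-stabilising transformation of DESeq2, in 4 tables of 2 groups, each transformed on its own. Inverting it gave whole reads for 100.0% of 661392 values (within 0.02 reads), equal for libraries in 2 tables. Depth, size factors (median ratio, 10173 genes) and normalised reads came from these. A gene with no row for a library was given no level there and added nothing to sums: of 46680 values with no row in 1 table and a row in that library's other table, 44841 were at 0 reads and 1839 were not. Reads carry no molecular identifiers, so limits for a count of 0 cover counting error only.

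For each comparison limma 3.58.1 (R 4.3.3; lmFit, eBayes with trend, 2-sided) was run on the table with both groups, for genes 1 or more over that table's floor in 4 or more libraries. This scale understates changes of low genes. Models of both running tables gave the averaged effect and its difference between ages. The fits were tested on simulated data. Runner columns O4ex and Y4ex and all control columns were matched to a group, not to single samples. GENCODE M21 matched 22254 of 23222 symbols (95.8%). Correlation p used 100000 permutations, 2-sided (Python 3.11.15). All members are named; of each pathway list, those called (up to 4) or else the gene with the smallest p; others (Cish, Lif, Stat5b, and genes outside the comparison that named them) were chosen after their values were seen. The members, lists and rule were chosen with earlier results of these data known. Alternatives were no filter, a stricter filter, centring on the median, voom, log2(normalised reads + 1), library weights, a replicate block, leaving out each library and, added later, removal of a trend on exon length (lowess span 0.3).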

Additional observations from a re-analysis of the deposited data

Results flagged for a closer look

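In 40 groups of 4 libraries (10 genes in 4 groups), 2 held a library that stood far from the other 3, and chance gives about 1 in 20. For Jak1 in young runners the third library (9943 reads) was low against 20876 to 23272 in the others, and its gap to the nearest was 0.872 of the whole range on the log2 scale, above Dixon's 95% critical value. For Jak2 in young controls the first library listed (2106 reads) was low against 3882 to 4329, with a gap of 0.849 of the range. These are also the libraries with the lowest measure of long against short genes in their groups (-0.31 and -0.67); its part in these values was not tested.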

How the results depend on the processing

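Over 62 differences of named genes, 1106 alternative values were computed: 1013 kept direction and side of the threshold, 16 newly passed, 32 no longer passed and 45 changed sign. The cause of a change was not tested unless stated. Members called in old mice (0) became 1 with the stricter filter, 1 with median centring and 2 with library weights (Socs3 lower, Il6st higher), and 0 to 1 with each library left out. In young mice the 1 call became 0 without a filter (Socs3 adjusted p = 0.0706, more genes tested), 0 with voom, 0 on log2 reads (0.0711), 2 with weights, and 0 to 1 with each library left out. Between controls 0 became 2 with weights (Lifr and Jak2 lower) and 0 to 0 without each library. In the averaged fit 1 became 2 with the stricter filter, 2 with centring and 3 with weights (Il6st and Jak1 higher). Without each library the count was 1 to 2, with Il6st added in 3 fits and Jak1 in 1. Between runners, and for the difference between ages, it was 0 under all alternatives. Genes called in old mice (12) became 7 without a filter, 27 stricter, 23 centred, 3 with voom, 3 on log2 reads, 688 with weights, 5 with the length trend removed and 1 to 295 (295 without the first old control). In young mice 81 became 24 without a filter, 143 centred, 13 with voom, 10 on log2 reads, 1394 with weights, 155 with the length trend removed and 0 to 181. Between controls 11 became 3 without a filter, 3 with voom, 4 on log2 reads, 461 with weights, 24 with the length trend removed and 3 to 52. Between runners 2 became 7 with weights and 0 to 3; for the difference between ages 0 became 27 with weights and 0 to 5; in the averaged fit 891 became 2034 with weights and 384 to 1175.

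Signs changed for differences that were small in the main fit. Il13ra1 also moved widely in size over the alternatives. Its difference ran from -0.08 to 2.35 in old mice and from -3.19 to -0.35 between controls. For the difference between ages it ran from -0.38 to 2.11. With library weights Il13ra1 gave -0.08 in old mice, Osmr 0.1 and Socs1 0.14 between controls, and Il13ra1 -0.38 for the difference between ages; with voom Osmr gave 0.08 there. With each library left out the ranges that cross 0 were, in old mice, Il13ra1 -0.05 to 0.53; in young mice, Lifr -0.29 to 0.02, Il13ra1 -0.24 to 0.26 and Stat3 -0.26 to 0.14; between controls, Osmr -0.35 to 0.08 and Socs1 -0.16 to 0.13; between runners, Il6st -0.32 to 0.03 and Jak2 -0.17 to 0.1; for the difference between ages, Il6st -0.17 to 0.37, Osmr -0.39 to 0.1, Il13ra1 -0.11 to 0.5 and Jak1 -0.18 to 0.23; and in the averaged fit, Jak2 -0.16 to 0.04, Stat3 -0.04 to 0.19 and Socs1 -0.17 to 0.0.

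The replicate block could be fitted for old runners against old controls and for the runners of both ages. Same-numbered libraries did not vary together (r of -0.14 to 0.12 and -0.4 to 0.09). Libraries of other numbers gave r of -0.3 to 0.35 and -0.4 to 0.41. The numbers thus gave no sign of pairing, which such r values cannot exclude. With the block 0 members were called in both, and genes called went from 12 and 2 to 0 and 0. The other comparisons share 1 number, so no block could be fitted there. With 4 libraries a group, Il6ra and low ligands were near the limit of what this depth can resolve.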
